A study of Mus musculus with 8 samples.

Results

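Among 1950708 windows of 1 kb measured on the 19 mouse autosomes, 995 (0.051%) were unmethylated in naive T cells and methylated in resting B cells. Windows were laid from the first base of each chromosome and needed at least 3 CpGs (a cytosine followed by a guanine) with 5 or more reads in all 4 files. Windows were selected on their measured levels: a window was taken when at most 25% of its CpG reads were methylated in both T cell files and at least 75% were methylated in both B cell files. The windows were thus chosen by these levels, which are given below as a description and are not tested, and the reverse state (low in B cells only) was met by 504 windows (0.0258%).

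Whole-genome bisulfite sequencing gave the methylation of spleen lymphocytes from C57BL/6J mice aged 6 to 8 weeks. The 8 samples fell into 4 groups of 2: female CD43- B cells, female CD4+CD62L+ T cells, male CD43- B cells and male CD4+CD62L+ T cells, none of them given a treatment in the labels. Each group had 1 file, each sample was a pool of animals, and the labels leave unsaid if a file merges both samples of its group, so no group has replicates. The T cells had been depleted of CD8, regulatory and gamma delta T cells and sorted as live CD62Lhi, CD44lo and CD25-, and the B cells were taken as negative for CD43, a surface protein absent from resting B cells. Bisulfite leaves 5-methylcytosine and 5-hydroxymethylcytosine unconverted alike. The labels say that part of each sample was oxidised, and the files were taken to be unoxidised from their names alone, in which case a level counts both. A level between the extremes cannot tell some unmethylated cells from some unmethylated CpGs in every cell.

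The autosomes held between 278275973 and 339923001 CpG reads per file, a mean of 14.6 to 17.7 reads per CpG. The cell labels were checked on regions within 1 kb of the starts of marker genes. Of 8 T cell marker starts, Cd3d, Cd3e and Cd3g were between 1.87% and 8.33% in T cells and between 83.4% and 95.5% in B cells, Lck, Cd5 and Cd6 were between 12.6% and 29.4% in T cells and between 64.6% and 72.1% in B cells, and Thy1 was low in both cell types. All 6 B cell marker starts were lower in B cells than in T cells in both sexes. They ran from 8.19% (Cd79b) to 32.8% (Cd22) in B cells and from 35.9% (Cd79b) to 93.6% (Ms4a1) in T cells, with Blk at 53.1% and 54.3% there. Starts of the natural killer genes Ncr1 and Klrb1c were between 78.7% and 88.9% in all 4 files. The 4 myeloid starts were mixed: Csf1r was between 88.3% and 93.0%, Itgam between 66.1% and 76.3%, Lyz2 between 41.5% and 66.7% and Cd14 between 12.7% and 17.9%.

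Most CpGs of a mammalian genome are methylated, apart from CpG-rich gene starts, which tend to be free of methylation in every cell type. Away from these starts, short unmethylated stretches often coincide with enhancers, the distal switches on which transcription factors assemble, and the set of such stretches differs from one cell type to another. T cells take their identity from the T cell receptor with its CD3 partner chains and from factors such as TCF-1, LEF1, BCL11B, GATA3 and the RUNX and ETS families.

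The reference sequence (RefSeq, GRCm38.p6, plus strand, 5′ to 3′) is shown for 4 of these windows, at genes with a central place in T cells, as 300 bases centred on the measured CpGs. Capitals mark the CpGs measured in all 4 files, and the rest of each stretch is in lower case.
Bcl11b intron, chr12:107928353-107928652: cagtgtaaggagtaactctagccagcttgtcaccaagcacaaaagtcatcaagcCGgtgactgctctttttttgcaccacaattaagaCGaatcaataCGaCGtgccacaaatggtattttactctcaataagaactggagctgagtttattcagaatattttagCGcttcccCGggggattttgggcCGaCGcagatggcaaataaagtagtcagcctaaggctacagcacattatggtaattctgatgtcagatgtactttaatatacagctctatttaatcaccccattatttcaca
Cd247 near the start, chr1:165789345-165789644: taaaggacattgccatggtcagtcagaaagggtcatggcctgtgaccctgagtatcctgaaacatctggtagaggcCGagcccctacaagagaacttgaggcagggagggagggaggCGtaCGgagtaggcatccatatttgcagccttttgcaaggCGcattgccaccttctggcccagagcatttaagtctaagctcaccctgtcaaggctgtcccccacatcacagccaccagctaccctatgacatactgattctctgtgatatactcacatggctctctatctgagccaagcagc
Lef1 intron, chr3:131138384-131138683: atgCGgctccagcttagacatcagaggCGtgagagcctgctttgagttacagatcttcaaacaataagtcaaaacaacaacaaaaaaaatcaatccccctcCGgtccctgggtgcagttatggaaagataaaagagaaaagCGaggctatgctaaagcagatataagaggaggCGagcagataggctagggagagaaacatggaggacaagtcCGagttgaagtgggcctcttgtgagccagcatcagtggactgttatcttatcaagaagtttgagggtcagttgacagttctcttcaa
T cell receptor alpha locus, chr14:54219324-54219623: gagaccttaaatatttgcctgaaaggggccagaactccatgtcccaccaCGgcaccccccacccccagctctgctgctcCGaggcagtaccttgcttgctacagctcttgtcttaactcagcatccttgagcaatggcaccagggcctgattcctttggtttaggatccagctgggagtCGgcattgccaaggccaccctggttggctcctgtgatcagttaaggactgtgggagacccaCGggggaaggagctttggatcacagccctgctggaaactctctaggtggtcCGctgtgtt
The 4 measured CpGs of the Cd247 stretch were at 92.8% in B cells against 0% in T cells of females, and at 97.8% against 0% in males. The 8 CpGs of the Bcl11b stretch were at 92.9% and 94.1% in the B cell files and at 7.69% and 9.7% in the T cell files. The 6 CpGs of the Lef1 stretch were at 98.6% and 96.4% in the B cell files and at 1.16% and 0.84% in the T cell files, while its whole window, with 21 CpGs, was at 19.3% and 20.9% in T cells. The 5 CpGs of the T cell receptor stretch were at 98.1% and 92.6% in the B cell files and at 20.8% and 22.7% in the T cell files, and its whole window, with 22 CpGs, was at 12.5% and 13.8% in T cells. A stretch can thus lie above or below its window, and 2 stretches chosen by the same rule but not printed left the pattern. The 3 CpGs of the Zap70 stretch were at 70.6% and 55.6% in T cells, where the whole window was at 18.1% and 16.3%, and the 4 CpGs of a stretch near Ubash3a were at 42.4% and 59.4% in B cells, where the window was at 81.6% and 87.6%.

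Across the 995 windows, the median level in females was 88.8% for B cells and 13.5% for T cells, and in males it was 88.7% and 13.8%. The B minus T difference had a median of 75.2 percentage points in females and 74.85 in males, with ranges of 51.2 to 100 points and 51.1 to 98.3 points. In 30 windows no methylated read was found in either T cell file. The rule cut through a continuum: 185 windows lay within 2 points of a threshold on the inside and 225 windows lay within 2 points on the outside, while 286 were 10 points or more inside. A member on the threshold, in an intron of Pip4k2a, lay on the limit in male T cells, and the nearest window outside, between genes near Rfx8, had 25.11% there. In 865 windows every file had 50 or more reads, and the median reads per window were 125, 152, 139 and 151 in B and T cells of females, then of males. Reads of a window are summed over its CpGs, here and below, so a read that spans several CpGs counts once at each.

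The best covered members, those with the most reads in the file with fewest, were at Zfp219, Tiam1, Bach1, Dynlrb2, Tacc1, 3110018I06Rik, Bcl11b, Cd3e, Kcnn4 and Tbc1d4. The intron window of Bach1, which encodes a heme-sensitive repressor, was at 81.2% in B cells and 4.46% in T cells of females (467 and 695 reads, 95% exact intervals 77.3 to 84.6 and 3.05 to 6.27). In males it was at 77.6% and 4.4% (651 and 704 reads, intervals 74.2 to 80.7 and 3.01 to 6.19). The intervals of the sexes overlapped in both cell types.

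The choice can be split by sex, so that windows chosen in one sex are measured in files that had no part in choosing them. In the female files alone, 1390 windows met the thresholds. In the male files 1384 of these (99.6%) had a B minus T difference of 20 points or more at an adjusted p under 0.05, where 1.19% of all windows did. The test was a two-sided Fisher's exact test on the reads of both male files with Benjamini-Hochberg adjustment over all 1950708 windows, and it compares those libraries and not the conditions. It takes the calls of 1 read at several CpGs as independent, so its p-values may be too small. The male difference was positive in all 1390 windows, with a median of 69.6 points and a lowest value of 14.7 points, and 995 windows (71.6%) also met the full rule in males. In the reverse direction, 1326 of the 1332 windows chosen in the male files (99.5%) were called in the female files, against 1.2% of all windows. The median female difference in those windows was 71.1 points, and 995 (74.7%) met the rule.

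**Figure D1:**
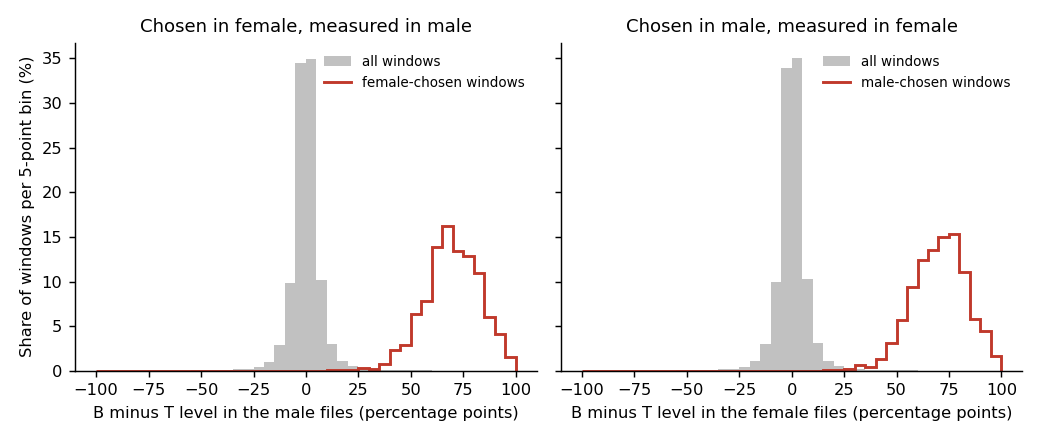
B minus T methylation level, in percentage points on the horizontal axis, in the files that took no part in choosing; the vertical axis is the share of windows per bin of 5 points. Windows chosen in females (left, red line, 1390 windows, median 69.6 points in males) and in males (right, red line, 1332 windows, median 71.1 points in females) lie far from the grey distribution of all 1950708 windows, whose medians are near 0.

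The sexes differed little within the 995 windows. The median size of the female to male gap was 2.75 points for B cells and 2.45 points for T cells, beside 2.71 and 2.58 points over all windows. The gap was 10 points or less in 96.9% of the windows in B cells and in 97.2% in T cells, beside 93.5% and 94.1% of all windows. The rule itself held both sexes to the same thresholds. The widest gap in T cells was in a window 28.9 kb before the start of A430078G23Rik, at 5.36% in females on 56 reads and 20.3% in males on 64 reads. In B cells the widest was near Ly6c1, at 77.5% in females on 40 reads and 95.7% in males on 70 reads. Both of these windows had only 3 measured CpGs.

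Most windows stood alone, and some gathered in stretches. With windows no more than 2 kb apart joined, the 995 formed 815 runs, of which 730 held 1 window, 52 held 2 and 33 held 3 or more. Runs of at least 2 took in 26.6% of the windows, beside 10.9% of the 504 windows low in B cells only, whose longest run had 4 windows. The longest run of windows low in T cells had 23.

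This longest run spanned chr14:54197001-54222000, in the T cell receptor alpha locus, where 23 of 25 measured windows were members. It covered 22 annotated segments from the joining segment Traj22 to the constant gene Trac, and it held no protein-coding gene of the annotation used. Its 276 CpGs were at 93.9% and 93.4% in the B cell files and at 12.5% and 14.01% in the T cell files of females and males. The alpha chain is assembled in T cells by joining a variable to a joining segment, which deletes the DNA between them, so the reads that remain come from the DNA left in place. T cell reads per B cell read were 1.02 in females and 0.848 in males over the first 11 members of the run and 1.23 and 0.96 over the last 11, against 1.22 and 1.08 over all windows. What part this loss of DNA has in the levels was not tested. Taken whole with the delta segments and 50 kb on either side, the alpha locus held 24 members of 858 measured windows (2.8%). The beta chain locus on chromosome 6, counted in the same way, held 14 members of 329 measured windows (4.26%). Of these, 5 in a row lay at the constant gene Trbc2, with levels of 92.2%, 4.05%, 91.1% and 4.44% in B and T cells of females, then of males. The gamma locus, counted in the same way, held 1 member of 202 windows (0.495%), beside 0.051% of all windows.

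Outside the receptor loci the longest runs, of 11 and 9 windows, were both in Satb1. This gene, which encodes a chromatin organiser needed in developing T cells, held 21 members, the most of any protein-coding gene. They were at 93.5% and 92.9% in the B cell files and at 4.57% and 3.58% in the T cell files. Here and for the genes that follow, distances from the start of a gene are from its outermost annotated start, and some of these genes have further starts inside. The Satb1 members lay 0.41 to 47.4 kb (median 2.42) from the nearest protein-coding start of any transcript. In T cells all 31 measured windows from 1.2 kb before the Satb1 start to 30.8 kb into the gene were at 12.8% or less, with a median of 0% in females. B cells shared only 8 of those 31 windows, at the start and again about 20 kb inside, while 19 were members and 4 had other B cell levels. The Satb1 windows that were not members had medians of 94.3% and 94.6% in B cells and 67.5% and 67.2% in T cells.

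**Figure D2:**
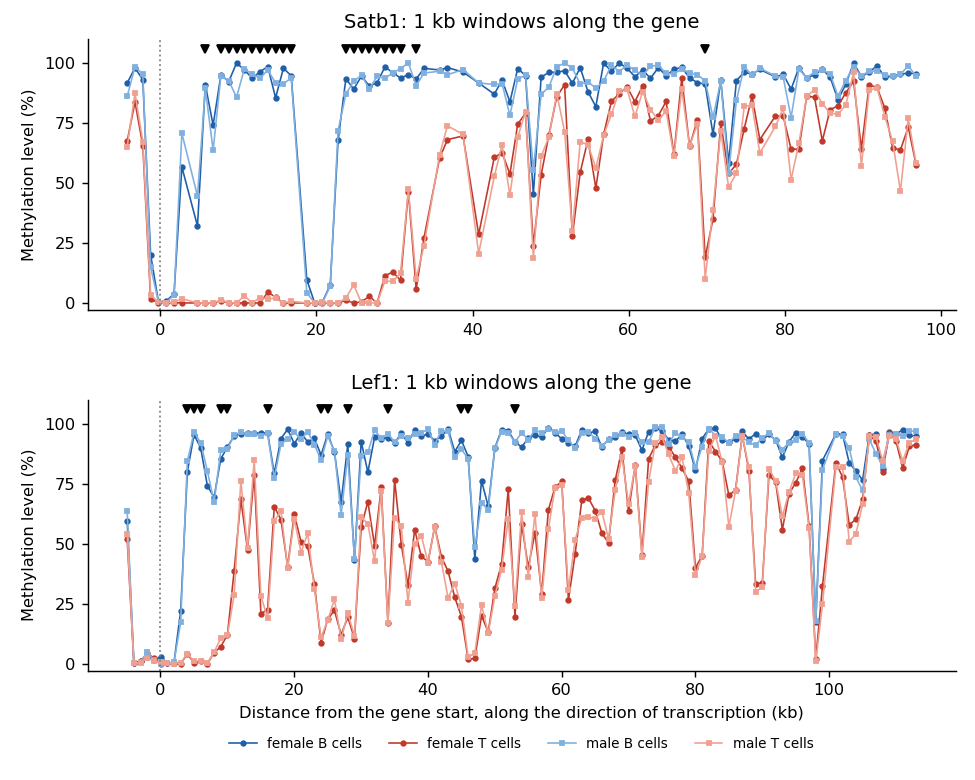
Methylation level (%, vertical axis) of each measured 1 kb window along Satb1 (95 windows) and Lef1 (118 windows) against the distance from the gene start in kb, with blue for B cells and red for T cells (circles female, squares male); black triangles mark the windows low in T cells only. In Satb1 the T cell level stays at or under 12.8% to 30.8 kb while the B cell level rises and falls, and in Lef1 the 13 members are spread from 4.03 to 53.0 kb.

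Lef1, which encodes a partner of beta-catenin, held 13 members between 4.03 and 53.0 kb from its start, with pooled levels of 91.1%, 11.6%, 90.6% and 13.2% in B and T cells of females, then of males. Its relative Tcf7, which encodes TCF-1, held 10 members, 6 of them in a row, and this run was at 89.9% and 90.2% in B cells and 0.77% and 0.862% in T cells. In both genes the start itself was low in B cells too: 1.47% and 0.204% at Lef1 and 10.6% and 11.8% at Tcf7.

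Bcl11b, whose product holds cells to the T lineage, had 14 members from 8.1 to 83.1 kb inside the gene, at 86.9% and 85.8% in B cells and 12.8% and 13.2% in T cells. Ets1 had 16 members and also 1 window low in B cells only. All of the members lay between 75.3 and 105 kb from the first start of the gene. From the nearest protein-coding start of any transcript they lay 15.1 to 45.1 kb (median 25.6). The region within 1 kb of that first start was at 43.3%, 56.8%, 41.6% and 56.6% in the 4 files in the order above, so it was not low in either cell type. Tox, a regulator of CD4 T cell development, had 5 members, Zbtb7b (the CD4 lineage factor ThPOK) had 4 and Ikzf1 (Ikaros) had 4. Among the 31 genes of the list of T lineage factors, 15 (48.4%) held at least 1 member, beside 2.41% of all protein-coding genes. The listed genes offered a median of 87 windows each, against 21 over all genes. Gata3 held none, although a window 186 kb from its start, at 25.11% in female T cells, was among the 5 nearest misses.

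The genes of the T cell receptor complex and its coreceptors held members densely. Of the 7 listed genes 6 (85.7%) did so, beside 2.41% of all genes, and Cd8a was the exception. The list held 22 members among 183 measured windows when windows shared by neighbouring genes are counted once. Cd3d and Cd3g are neighbours transcribed away from each other, and they share a run of 8 members of 9 windows at 92.1%, 6.87%, 91.8% and 6.23% in B and T cells of females, then of males. Cd247, which encodes the zeta chain, had 8 members with T cell levels of 6.62% and 7.2%. Cd3e had 3 members, Cd8b1 had 1 and Cd4 had 2, the latter at 81.4% and 79.8% in B cells and 14.2% and 12.8% in T cells.

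Among 27 genes of receptor signalling 17 (63.0%) held members, beside 2.41% of all genes. The median was 49 windows per gene against 21 over all genes. The adaptor Fyb had 8, between 58.6 and 101.6 kb from its outermost start but 1.63 to 31.6 kb from the nearest start of any transcript, the adaptor Grap2 had 7, and Prkcq, which encodes the kinase PKC theta, had 6. Lck, the kinase that starts the signal, had 3 at 86.3% and 86.6% in B cells and 16.4% and 13.5% in T cells, and its partner Zap70 had 1, described below with the gene starts. The 2 members in Lcp2, which encodes the adaptor SLP-76, had no methylated read in either T cell file and were at 86.9% and 88.4% in B cells.

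Of 20 surface and costimulation genes 7 (35%) held members, beside 2.41% of all genes. The listed genes offered a median of 29.5 windows each, against 21 over all genes. Cd2 and Cd28 had 3 each and Cd5 had 2. The Cd28 members lay 30.7 to 32.7 kb from the outermost start of the gene and 1.14 to 3.14 kb from an inner start. They were at 87.8% and 84.4% in B cells and 3.7% and 0.405% in T cells, and the outermost start was above 90% in all 4 files. Of 25 cytokine and homing receptor genes 6 (24%) held members, beside 2.41% of all genes, and their median was 32 windows per gene. Ccr7, the lymph node homing receptor, was in front with 3 at 85.1%, 1.13%, 83.6% and 0.909%.

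**Figure D3:**
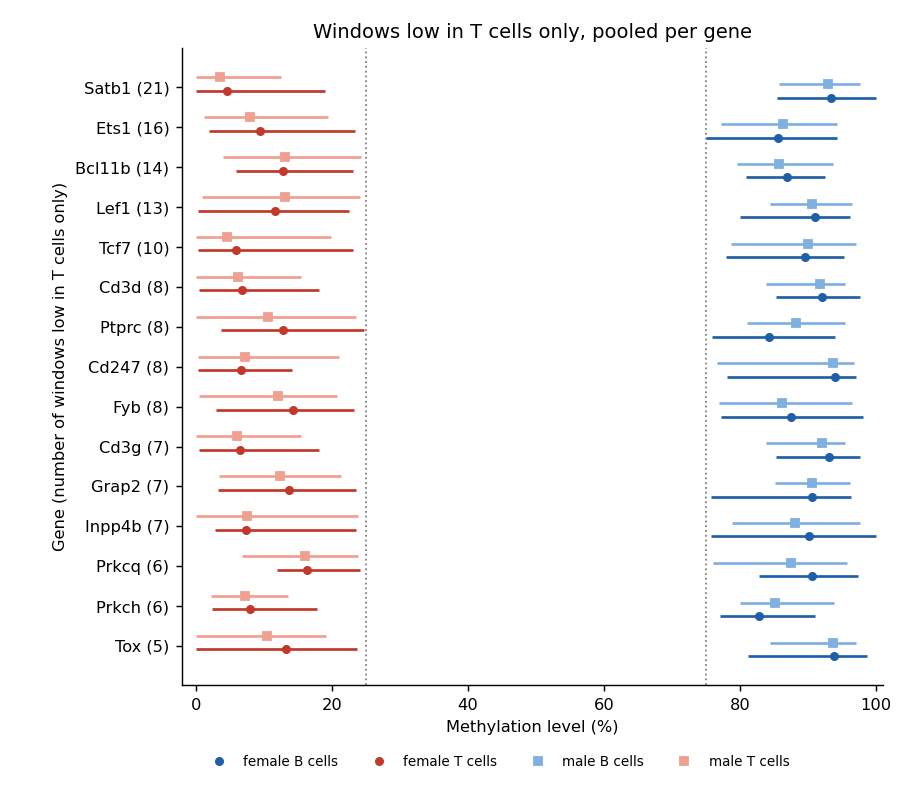
Methylation level (%) of the windows low in T cells only, for 15 protein-coding genes with 5 or more of them; points are levels pooled over the gene's members, lines run from the lowest to the highest member, and dotted lines mark the thresholds of 25% and 75%. Satb1 with 21 members has the lowest pooled T cell levels (4.57% and 3.58%), and Cd3d and Cd3g share members.

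Several lists held no member. These were the Notch pathway (10 genes), the GIMAP cluster of small GTPases of lymphocyte survival (8 genes) and effector genes such as cytokines and granzymes (17 genes). The lists of myeloid (14), NK cell (9), erythroid and platelet (9), liver (10) and neuron genes (9 measured of 10) had 0 as well. Short genes offer few windows, and the median was 9 windows in effector genes and 11 in the GIMAP cluster, against 214 in neuron genes. Counted once, the windows numbered 846 (Notch), 87 (GIMAP), 180 (effector), 314 (myeloid), 111 (NK cell), 82 (erythroid and platelet), 144 (liver) and 2575 (neuron). All gene windows held 0.766 members per 1000, so in the lists with under 1000 windows a count of 0 is near that rate. Of 28 B cell genes 2 (7.14%) held a member, Ralgps2 and Syk, beside 2.41% of all genes. A window low in B cells only was held by 9, beside 1.44% of all genes. Per 1000 windows the B cell genes held 1.1 members, near the 0.766 of all gene windows. They held 8.22 windows low in B cells only per 1000, beside 0.342 over all gene windows. The Ralgps2 window was at 90.7% and 97.4% in the B cell files and at 0% and 3.45% in the T cell files, and the window in Syk, a kinase of B cell receptor signalling, was at 93.1% and 79.6% and at 13.1% and 16.7%. The 8 T cell lists together had a member in 51 of 145 genes (35.2%), beside 497 of 20610 protein-coding genes (2.41%), and 199 members among 9200 windows (21.6 per 1000), beside 0.766 per 1000 over all gene windows, each window counted once. The lists are T cell genes collected with results of these data already known, so these shares describe and do not test.

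Outside the lists, Ptprc had the most members. It encodes the phosphatase CD45, which both B and T cells carry. Its 8 members lay 6.21 to 37.2 kb from the start, at 84.2%, 12.8%, 88.3% and 10.6% in B and T cells of females, then of males. The other windows of Ptprc had medians of 92.0% and 92.0% in B cells and 87.3% and 85.4% in T cells. Inpp4b (a lipid phosphatase) had 7 members, all of them between 393 and 435 kb into a gene with 566 measured windows and 0.612 to 11.6 kb from the nearest start of any transcript, and Prkch, which encodes PKC eta, had 6. Of the 497 genes with members, 403 had 1 and 16 had 5 or more, and 22 also held a window low in B cells only, which is 4.43% of the genes of the first kind and 7.41% of the 297 genes of the second. Over all 20610 genes, 1.44% held a window low in B cells only and 2.41% a window low in T cells only.

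The share of members at protein-coding starts was small, but larger than that of all windows. Of the members 50 (5.03%) had their midpoint within 1 kb of a protein-coding start, beside 2.92% of all windows. Of the windows low in B cells only 4.56% did, a share near that of the members. Among those with the most CpGs were windows at C2, Cd247, Kcnip2, Zap70, Fam71b, Cd3e, Hdac7, Cd5 and Cd3d. The Cd247 window, with 28 CpGs, was at 95.7% and 0.344% in B and T cells of females and at 95.3% and 0.354% in those of males. The Cd3e window was at 86.9%, 0.963%, 89.98% and 1.17% in the same order. In contrast the Zap70 window was at 84.3%, 18.1%, 85.3% and 16.3%, and that of C2, a complement gene, at 76.4%, 21.1%, 84.3% and 23.9%.

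The starts of the genes that hold members were mostly low in both cell types. The region within 1 kb of the outermost annotated start was at 25% or less in all 4 files for 376 of 496 such genes (75.8%), beside 226 of 297 genes (76.1%) that hold a window low in B cells only and 58.2% of all genes measured. It was low in T cells and high in B cells for 8 (1.61%), beside 9 of all 20248 genes measured (0.0444%). In the 51 T cell list genes with members, 28 starts (54.9%) were low in all 4 files and 6 (11.8%) were low in T cells only, among them those of Cd3d, Cd3e, Cd3g, Cd247 and Themis. In the 94 T cell list genes without a member, 44 (46.8%) and 1 (1.06%) were so. These start regions can overlap members, so the shares are a description.

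Most members lay beyond 1 kb of a protein-coding start and inside genes, yet by the median they were nearer to starts than all windows. The median distance to the nearest protein-coding start was 18.1 kb, with quartiles at 4.94 and 43.3 kb, beside a median of 47.6 kb for all windows and 21.7 kb for windows low in B cells only. With the starts of all annotated genes, noncoding ones included, these medians were 5.81, 14.6 and 6.7 kb. Of the members 15.4% then lay within 1 kb of a start, beside 7.01% of all windows and 10.9% of those low in B cells only. Introns held 61.8% (95% Wilson interval 58.8 to 64.8), beside 39.6% of all windows and 50.2% of those low in B cells only. Intergenic space held 29.2%, beside 54.7% of all windows and 39.5% of those low in B cells only. In the same order untranslated regions held 2.61%, 1.47% and 3.57%, and coding exons 1.31%, 1.35% and 2.18%. Of members beyond 1 kb, 70.5% lay downstream of their nearest start, in the direction of transcription, against 54.0% of all windows and 57.4% of those low in B cells only. Windows in 1 gene are not independent, and no difference between these shares was tested.

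Read against the windows that T cells keep unmethylated, the members were a small share. In both T cell files 41530 windows were at 25% or less, of which 85.0% were low in B cells as well, 12.6% were at other levels in B cells and 2.4% were members. Within 1 kb of a start the members were 50 of 21703 such windows (0.23%), and beyond 1 kb they were 945 of 19827 (4.77%). Among these low windows of T cells the share fell with the number of CpGs. It was 12.7% in low windows with 3 to 5 CpGs of the reference, 9.32% with 6 to 10, 4.29% with 11 to 20 and 0.183% with 21 or more. As a share of all windows measured, members ran otherwise, at 0.0327%, 0.0501%, 0.0738% and 0.0466% in the same 4 classes. T cell levels entered the rule, so this ordering describes where low windows of T cells were high in B cells.

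In base composition the members were close to the rest of the genome. They had a median of 9 reference CpGs per kb, beside 8 for all windows and 10 for those low in B cells only, and a G+C share of 44.2% beside 42.7% and 45.8%. The ratio of observed to chance-level CpGs was 0.198, beside 0.179 for all windows. None of the 995 had the make-up of a CpG island (a ratio of 0.6 or more with a G+C share of at least 50%), and 3 counts of 995 would allow a share of up to 0.302%. Of all windows 0.788% did, and of the 504 low in B cells only 1 did (0.198%). Repeats covered a median of 18.2% of a member, beside 23.1% for all windows and 17.3% for those low in B cells only. Of the members 3.92% were covered to 50% or more, beside 18.4% of all windows and 3.57% of those low in B cells only. Reads per CpG were close to those of all windows, with medians of 14.2, 17.3, 15.6 and 17.2 beside 13.8, 16.5, 15.2 and 16.3 in B and T cells of females, then of males.

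Of 9907 CpGs in members, 80.4% were at 25% or less with both T cell files pooled, 86.8% were at 75% or more in B cells and 68.1% were both. Every measured CpG was low in T cells in 225 members (22.6%), high in B cells in 407 (40.9%) and both in 127 (12.8%). Around the members the T cell median rose from 13.5% in females and 13.8% in males to 60.2% and 58.4% in the window 1 kb before, to 79.0% and 78.7% at 2 kb before and to 89.5% and 89.4% at 10 kb before. The B cell medians were 88.8% and 88.7% in the member and 92.4% and 91.8% at 1 kb before. The median B minus T difference fell from 75.2 points in the member to 21.99 points at 1 kb before and 20.5 points at 1 kb after, and it was 5.95 and 5.51 points at 2 kb. With the reads of all neighbours pooled, the levels lay further apart, at 72.4% in B cells and 52.1% in T cells of females 2 kb before and at 74.8% and 64.7% at 10 kb before, and at 71.1% and 52.2%, then 74.1% and 64.9%, in males. In the 730 members that stood alone the median difference was 11.5 and 2.3 points at 1 and 2 kb before, but these were picked for having no member within 2 kb, which favours a small difference there.

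**Figure D4:**
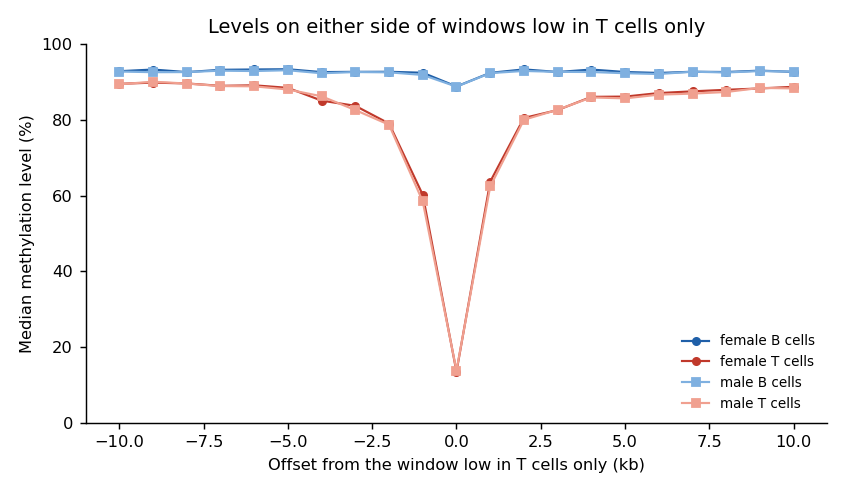
Median methylation level (%) of the 1 kb windows from 10 kb before to 10 kb after the 995 members, on the plus strand of the genome, in the 4 files; neighbours that are members themselves are included, and 904 to 942 neighbours were measured per position. T cell medians fall to 13.5% and 13.8% at the member and are at 79.0% and 78.7% in the window 2 kb before, while B cell medians stay at 88.7% or above.

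Short sequence motifs were counted on both strands in the members and in windows of the same length. The RUNX motif TGTGGTT was in 33.5% of members (interval 30.6 to 36.5), in 25.6% of windows low in B cells only and in 21.7% of all windows. The TCF/LEF motif ATCAAAG was in 25.8%, 14.5% and 18.1% of the same 3 sets, the ETS motif CAGGAAGT in 12.4%, 9.13% and 6.94%, and the GATA motif AGATAAG in 18.5%, 9.72% and 13.6%. Factors of these families act in T cells, but the RUNX and ETS motifs were also more frequent in windows low in B cells only than in all windows. Among windows with a G+C share in the middle range of the members, RUNX was in 34.9% of members, 31.6% of windows low in B cells only and 22.5% of all windows. In the same order TCF/LEF was in 24.4%, 17.3% and 16.6%, ETS in 12.1%, 9.28% and 7.38%, and GATA in 15.9%, 7.17% and 13.4%.

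Motifs of the B cell factors EBF and OCT were less frequent in the members than in windows low in B cells only. The EBF motif CCCNNGGGA was in 7.14% of members, 34.1% of windows low in B cells only and 9.84% of all windows, and the OCT motif ATGCAAAT in 4.12%, 11.5% and 7.8%. The E-box CAGCTG was in 41.7% of members, 54.0% of windows low in B cells only and 33.3% of all windows, and the E-box CAGGTG in 55.3%, 62.9% and 48.1%. The PU.1 motif GAGGAAGT, which differs from the ETS motif in its first letter, was in 6.03% of members, 8.13% of windows low in B cells only and 6.03% of all windows. Of the remaining motifs, AP-1 (TGACTCA) was in 18.2% of members, 17.9% of windows low in B cells only and 15.5% of all windows. In the same order, FOX (TGTTTAC) was in 14.6%, 12.5% and 14.1%, and KLF (GGGTGTGG) in 9.35%, 10.9% and 6.55%. STAT (TTCNNNGAA) was in 32.96%, 26.6% and 31.3%, IRF (GAAANNGAA) in 29.9%, 31.9% and 32.0%, and a core of CTCF (AGGGGGC) in 10.1%, 12.3% and 8.46%. A match to a few letters is not a binding site, and the shares were not tested.

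**Figure D5:**
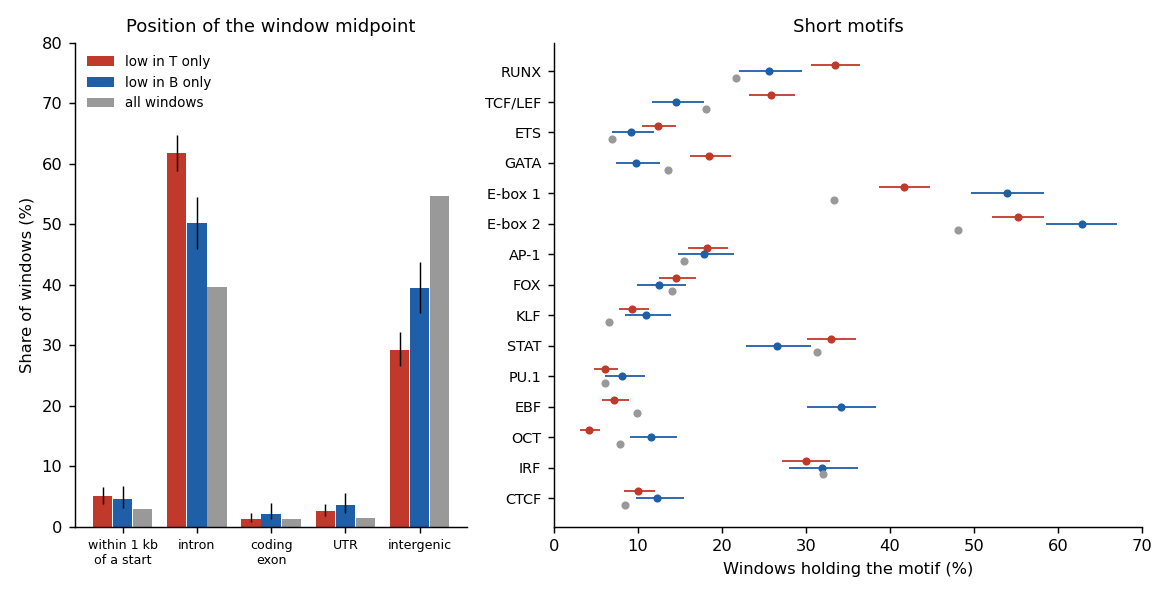
Left, share of windows (%) by position of the midpoint; right, share of windows (%) that hold a short motif, with E-box 1 for CAGCTG and E-box 2 for CAGGTG; red is low in T cells only (995 windows), blue low in B cells only (504) and grey all 1950708 windows, and bars are 95% Wilson intervals. Introns hold 61.8% of the red set, the RUNX motif is in 33.5% of it, and the EBF motif is in 34.1% of the blue set and 7.14% of the red.

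The windows were spread over all 19 autosomes, from 2.68 per 10000 measured windows on chromosome 7 to 9.09 on chromosome 11. Chromosome 11, which carries Tcf7, Ikzf1 and Ccr7, held 94 members in 68 runs. Annotated enhancers of RefSeq touched 1 member (0.101%), in Mvb12b, beside 0.156% of all windows. That window was at 84.6% and 90.9% in the female and male B cell files and at 4.26% and 5.09% in the T cell files.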

How the data were processed

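The authors deposited 1 text file per group with the methylation level of each CpG as a fraction to 3 decimals and its coverage as a count of reads, with strands merged and no CpG under 5 reads. The submitters' processing notes name Trim Galore, FastQC, Bismark 0.13.1 and mm10, without role or order. How reads were filtered and deduplicated, and the conversion reached, are not given in the sources used here. CpGs under 5 reads are thus left out, and reads that map poorly in repeats may be under-represented. The labels state that part of each sample was oxidised, and the files were taken as plain bisulfite libraries from their names alone.

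Methylated reads were recovered as the deposited fraction times the coverage, rounded, and positions (counted from 0 in the files) were matched to GRCm38.p6, where 100% fell on a CpG. A window's level was its methylated reads over all reads at CpGs with 5 or more reads in all 4 files. Reads were summed over CpGs, so 1 read can count at several CpGs of a window. Windows are printed counting from 1. Genes were protein-coding genes of GENCODE M21. A gene held a window when the midpoint lay in its body or up to 5 kb before its start. Repeats were the soft-masked bases of the reference. Motifs were searched as spelled, on both strands. Fisher's exact test (two-sided, Benjamini-Hochberg over 1950708 windows) was tested on simulated data. Python 3.11.15 was used with numpy, pandas, scipy and numba. Wilson intervals (95%) cover counting error only.

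The members and lists were chosen with earlier results of these data known. The text names the genes or loci of the 10 longest runs, though not each run, and the 10 genes with most members. It names T cell list genes that hold members, though not each of the 30 with most, and B cell and other list genes that hold one. Also named are the 10 members at starts with most CpGs and the 10 best covered members. Windows beside the thresholds and the members with the widest female to male gap are named too. A few further genes were named after their values were seen: Inpp4b, Prkch, Mvb12b and the T cell receptor segments. The 4 sequences printed were picked, after their values were seen, from 8 selected by list, run and CpG number. A gene and a sequence that these rules select are not reported here. Thresholds, CpG and read minimums, window size and position, pooling, deep windows, the gene set and each file were varied. The X and Y chromosomes were not analysed here.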

Additional observations from a re-analysis of the deposited data

How the results depend on the processing

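The number of windows followed the thresholds and the window size: it was 577 at 20% and 80%, 1663 at 30% and 70%, and 2843 in windows of 500 bp, against 995. With the choice at 20% and 80%, 783 of 785 female-chosen windows were called in males and 789 of 791 male-chosen windows in females. The median distance to a start fell to 5.81 kb when all annotated genes were used in place of protein-coding ones, which adds starts by construction. The share of windows in runs was 21.6% with 10 reads per CpG. The remaining changes were in values with no threshold: the median number of CpGs was 10 with at least 5 CpGs per window, 7 with 10 reads per CpG and 5 in windows of 500 bp, the RUNX motif was in 21.5% of windows of 500 bp, and the median B minus T was 79.8, 68.7, 76.1 and 77.5 points at 20% and 80%, at 30% and 70%, with 10 reads per CpG and in windows of 500 bp.

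Without 1 of the 4 files in turn, the rule chose 1092 to 1245 windows, the T cell list genes with a window numbered 52 to 56, and the median B minus T was 72.3 to 73.9 points. Of 118 alternative values 99 stayed within 1.5 times the count or inside the 95% interval of the value reported. Leaving out windows within 50 kb of a T cell receptor gene segment, an alternative chosen after seeing the data, left 956 windows, of which 24.3% lay in runs. No paired analysis was possible because the labels give no sample number to more than 1 group and each group has 1 file. With 1 file per group, no spread between pools of animals could be measured, and levels of windows with few reads carry wide counting intervals: 26 members had under 30 reads in a file.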
